A study of Brachypodium distachyon with 11 samples.

Results

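Small nuclear RNA (snRNA) genes were examined in ChIP-seq peak lists for 3 tagged proteins in Brachypodium distachyon, a wild grass related to the temperate cereals. The members are all 86 genes of biotype snRNA that the RefSeq gene table of the Bd21 assembly places on chromosomes 1 to 5, out of 31197 genes of all biotypes there. A member was called bound in a library when at least 1 bp of its body lay under a deposited peak, and a wider rule extended the body by 2 kb on each side. The class was chosen by its peak overlap in these same lists, so its counts of bound members are a description, and what was tested is how they differ between libraries.

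snRNAs are short non-coding RNAs that, with their bound proteins, form the core of the spliceosome, the machine that removes introns from messenger RNA precursors. Plant genomes carry each type in several near-identical copies, each copy with a compact promoter directly upstream. Most types are made by RNA polymerase II and a minority by RNA polymerase III, the enzyme that also makes tRNAs. The gene table gives no type for the members, so they are described by gene ID and length.

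Seedlings of Bd21-3 that overexpressed 1 FLAG-tagged protein from a UBIQUITIN promoter were grown for 2 weeks at 20 °C and harvested whole, and chromatin was collected on an anti-FLAG gel. ELF3, a clock protein that holds the evening complex together, was profiled in 7 libraries: long days (LD, 20 h light and 4 h dark) and short days (SD, 12 h light and 12 h dark), each at ZT0, ZT4 and ZT20 (hours after lights on), and constant light (LL) at ZT0. PHYC, a phytochrome photoreceptor, was profiled in 2 libraries with the same labels (LD ZT20), and PRR37, a pseudo-response regulator of the clock also called PPD1, in 1 library (LD ZT4). Every other condition had a single library, no label tells if the plants of the PHYC pair were separate, and no list from the input sample or from untagged plants was used here. The promoter drives expression of the tagged gene at all times and not in its native pattern. Protein level need not be constant: the paper reports that ELF3 protein built up at night, dropped quickly in light and was lower in LD. The level of tagged protein was not measured in these libraries. PHYC and PRR37 were sampled in LD only, so target, photoperiod and time are only partly separable. The study selected homozygous single-insertion lines, and how many of them entered each library is not stated in what was read here.

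The lists held 12344 to 16457 peaks on chromosomes 1 to 5, covering 1.32% to 1.74% of the bases. They were deposited at a loose threshold: the lowest −log10 p was close to 1 in every list, and 67.2% to 95.5% of the peaks of a list had a q-value of 1. Depth per library is unknown. ELF3 lists were longer (13666 to 16457 peaks) than PHYC and PRR37 lists (12344 to 13350), and these ranges did not overlap.

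Between 8 and 25 of the 86 members were bound in a library, with a median of 16.3%. With the deposited peaks, that was above the share in other classes of short RNA gene in every library. In 9 of 10 it was below the share of all genes, most of which are far longer protein-coding genes. Few members were left at stricter thresholds, as given below. At p under 0.001 their share bound in 1 or more libraries stayed above that of the other short classes, though not in every single library. At q under 0.01 only 1 member was bound. snoRNA genes were bound at 3.01% to 4.68% of 299, tRNA genes at 1.89% to 6.25% of 528, miRNA genes at 4.19% to 8.71% of 310 and rRNA genes at 0 of 153 in every library. Among the 427 other genes as long as the members (102 to 200 bp), 2.11% to 4.68% were bound. In each library the snRNA share was 2.34 to 11.3 times that of these 427 genes 2.53 to 8.69 times that of snoRNA genes and 3.68 to 7.26 times that of tRNA genes. Against miRNA genes the ratio was lower, at 1.25 to 6.01, with its smallest value in ELF3 LD ZT4.

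Under ELF3 in LD, 22 members were bound at ZT0 (25.6%, 95% Wilson interval 17.5% to 35.7%), beside 27.1% of all genes. At ZT4 in LD 8 members were bound (9.30%, interval 4.79% to 17.3%), beside 26.4%. At ZT20 in LD 12 were bound (14.0%, interval 8.17% to 22.8%), beside 26.6%. The ELF3 LD libraries thus held both the highest and the lowest ELF3 count.

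In SD the ELF3 counts were closer together. At ZT0 13 members were bound (15.1%, interval 9.05% to 24.2%), beside 26.3% of all genes. At ZT4 14 members were bound (16.3%, interval 9.95% to 25.5%), beside 24.4%. At ZT20 10 members were bound (11.6%, interval 6.44% to 20.1%), beside 26.5%. In LL at ZT0 ELF3 bound 14 members (16.3%, interval 9.95% to 25.5%), beside 29.6%, the largest share of all genes in any library.

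PHYC bound 16 members in replicate 1 (18.6%, interval 11.8% to 28.1%), beside 23.5% of all genes, and 25 in replicate 2 (29.1%, interval 20.5% to 39.4%), beside 20.1%. PRR37 bound 18 members (20.9%, interval 13.7% to 30.7%), beside 21.4%. PHYC replicate 2, the shortest list, was the one library in which the snRNA share exceeded that of all genes, by 8.97 percentage points. Intervals cover counting error only, and members that are near-identical copies are not independent.

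**Figure D1:**
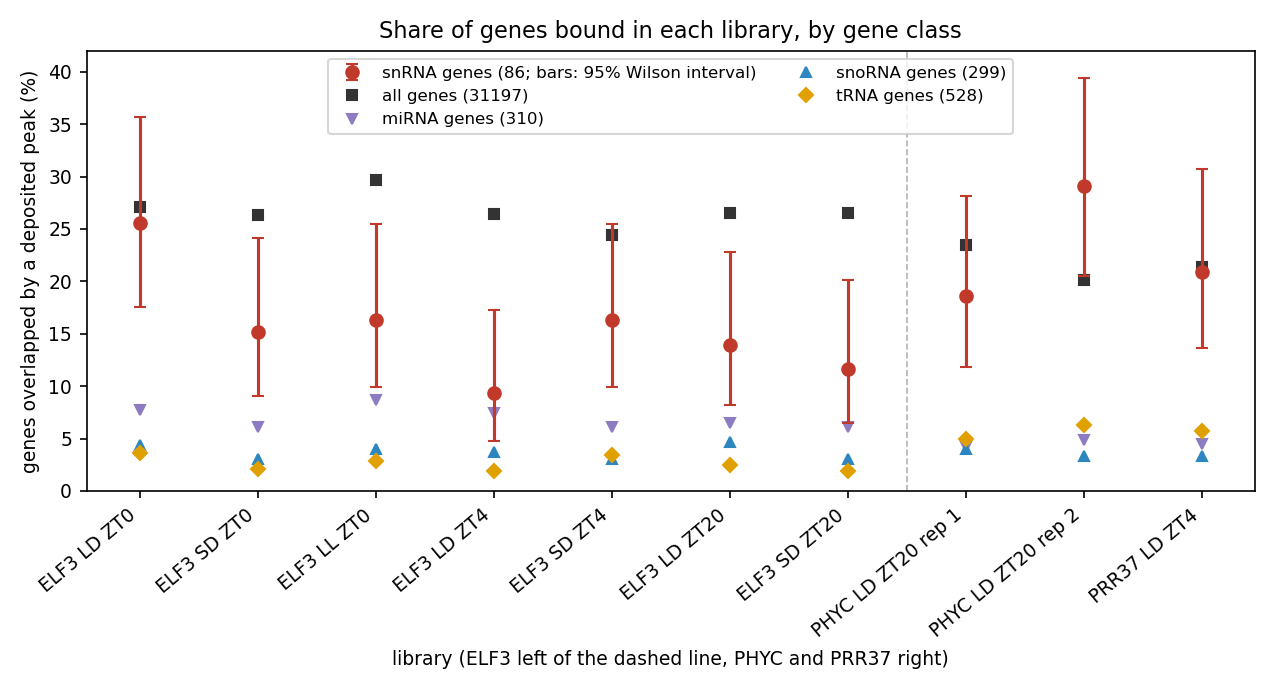
Percent of genes of each class whose body was overlapped by a deposited peak (vertical axis) in each of the 10 libraries (horizontal axis), with 95% Wilson intervals for the 86 snRNA genes. snRNA genes lie between 9.30% and 29.1%, above snoRNA, tRNA and miRNA genes in every library, and above all genes only in PHYC replicate 2.

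With the window of 2 kb on each side the members were below snoRNA genes in most libraries. They stayed above tRNA genes, miRNA genes and other genes of member length in every library. Under ELF3, 41 members had a peak in the window in LD ZT0 (47.7%, beside 43.8% of all genes), 34 in SD ZT0 (39.5%, beside 42.4%) and 37 in LL ZT0 (43.0%, beside 46.4%). Counts were 32 in LD ZT4 (37.2%, beside 42.3%), 32 in SD ZT4 (37.2%, beside 39.9%), 29 in LD ZT20 (33.7%, beside 42.2%) and 30 in SD ZT20 (34.9%, beside 41.7%). PHYC had 26 in replicate 1 (30.2%, beside 39.0%) and 37 in replicate 2 (43.0%, beside 35.6%), and PRR37 had 31 (36%, beside 36%). snoRNA genes, with 36.8% to 49.8% by this rule, were in the same range as the members, and tRNA genes reached 22.7% to 30.5%. miRNA genes had 17.1% to 31.0% and other genes of member length 18.7% to 25.8%.

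The peak summits were gathered close to the members, more often beside the body than inside it. This follows in part from choosing the class by peak overlap and was not tested. Within 150 bp of a member's centre there were 4.42 summits per 100 gene-library pairs and 100-bp bin, against 0.761 at 1 to 2 kb, a ratio of 5.81. The same ratio was 0.774 for snoRNA genes and 1.5 for tRNA genes, and miRNA genes were not profiled. The most crowded bin, centred 100 bp below the members' centre, held 67 summits from 21 members. The table carries no strand here, so this side cannot be read as upstream or downstream.

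**Figure D2:**
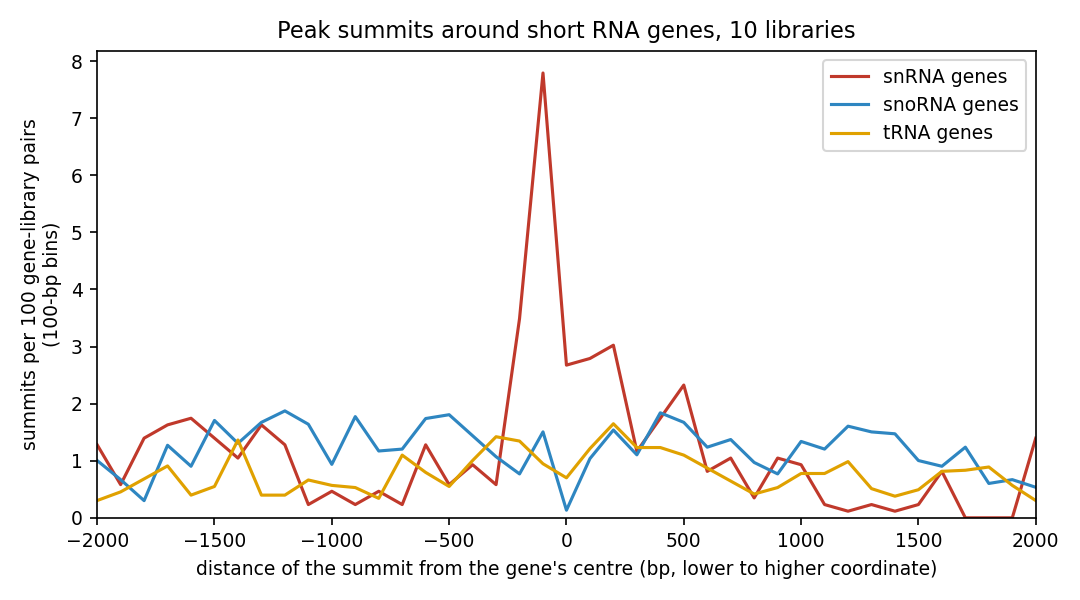
Number of peak summits per 100 gene-library pairs in bins of 100 bp (vertical axis) by distance from the gene's centre in bp (horizontal axis), summed over 10 libraries, for snRNA, snoRNA and tRNA genes. The snRNA curve reaches 7.79 in the bin at −100 bp, while neither other class shows a rise of this height near the gene.

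In all, 152 member-library pairs were bound, each by its own peak within a library. Summits fell within 200 bp of the member's centre in 136 pairs (89.5%) but inside the body in only 36 (23.7%), with a median distance of 121 bp. The peaks had a median width of 308 bp, and in 76 pairs the whole member lay under the peak. A protein-coding gene lay under the same peak in 22 pairs (14.5%), and none did in 130 (85.5%). At the edge of the rule, LOC112270274 in ELF3 LD ZT4 was called on 1 bp of overlap with a fold of 2.10, whereas LOC112269620 in the same library was missed by 1 bp with a fold of 1.96. LOC112272132 in PHYC replicate 2 lay between a pair of peaks with folds of 2.36 and 2.87 and was called on 1 bp of overlap. Overlaps of 20 bp or less made 11 of the bound pairs, and gaps of 20 bp or less 12 of the others.

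In lists where most peaks had a q-value of 1, the peaks at members lay near the middle. Their fold enrichment over background, as the authors' peak caller gave it, had a median of 2.34 and ran between 1.52 and 4.04. Their median rank by −log10 p was at percentile 57.1 of the peaks in the same list, and 122 of 152 (80.3%) had a q-value of 1. By library this median rank ran between percentile 40.5 (ELF3 SD ZT0) and 65.7 (PHYC replicate 1). At p under 0.001, 8 members (9.30%) were bound in 1 or more libraries, beside 15.7% of all genes. Other short classes had 3.01% (snoRNA), 2.08% (tRNA) and 4.52% (miRNA), and other genes of member length had 3.04%. In single libraries miRNA genes were ahead in some cases (3.23% against 2.33% in ELF3 SD ZT0) and behind in others. At q under 0.01, the filter named in the study's methods, 1 member (1.16%) was bound in any library, beside 2.36% of all genes. Other genes of member length then had 1.17%, snoRNA genes 1.00%, tRNA genes 0% and miRNA genes 1.94%. With the 2 kb window and q under 0.01 there were 2 members (2.33%), beside 3.71% of all genes.

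Binding recurred at a minority of members and was never seen at most. A deposited peak overlapped 33 members (38.4%) in 1 or more libraries, beside 51.0% of all genes, and 53 members in none. Of the 86, 14 (16.3%) were bound in 5 or more libraries, beside 24.7%, and 5 (5.81%) in all 10, beside 8.03%. In other short classes 3 snoRNA genes of 299, 1 tRNA gene of 528 and 7 miRNA genes of 310 were bound in all 10. Among genes bound in 1 or more libraries, the share bound in all 10 was 15.2% for snRNA genes. It was 15.2% for miRNA genes, 11.5% for snoRNA genes, 1.41% for tRNA genes and 15.7% for all genes. With the window, 60 members (69.8%) were bound in 1 or more libraries, beside 72.7%, and 11 (12.8%) in all 10, beside 15.1%. Since no input or untagged list was used here, peaks that need the tagged protein and peaks that would appear without it cannot be told apart at these sites.

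**Figure D3:**
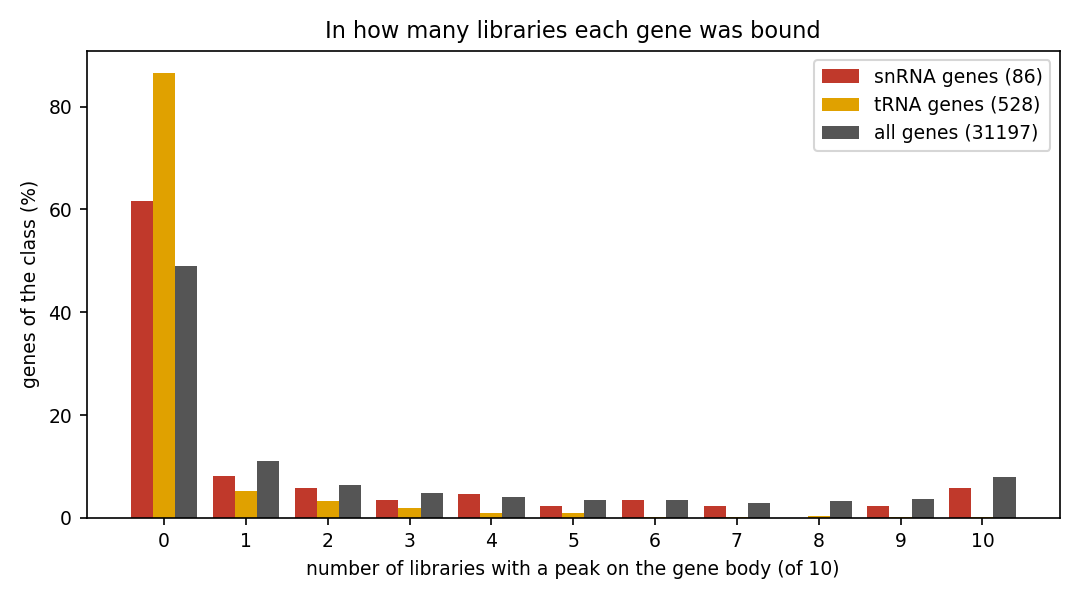
Percent of genes in each class (vertical axis) by the number of the 10 libraries with a peak on the gene body (horizontal axis), for 86 snRNA, 528 tRNA and 31197 genes in all. Most snRNA genes (53) had no peak in any library, while 5 had one in all 10, a class with 1 tRNA gene.

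LOC112272147 (161 bp, chromosome 3) had the highest median fold of the members (3.15) and the highest single fold. Other members had higher folds in some libraries, such as LOC112271207 with 3.69 in ELF3 LL ZT0. LOC112272147 was the only member with a body peak past q under 0.01. Under ELF3 its fold was 2.97 in LD ZT0, 2.58 in LD ZT4, 2.89 in LD ZT20, 4.04 in SD ZT0, 2.86 in SD ZT4, 3.59 in SD ZT20 and 3.38 in LL ZT0. Under PHYC it was 3.41 and 3.32 (replicates 1 and 2), and under PRR37 it was 2.68. The ELF3 values spanned those of PHYC and PRR37, with SD ZT0 highest (−log10 p of 6.29, −log10 q of 2.42) and LD ZT4 lowest. The peaks together covered chr3:54104628-54105480 in the authors' coordinates, and every summit lay 74 to 134 bp below the member's centre, within 60 bp of each other. No peak reached its nearest protein-coding gene, LOC100846411, 472 bp away. Folds are relative to each list's own background, so differences of level between lists are not measurements of binding strength.

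LOC112271207 (197 bp, chromosome 2) was bound in all 10 libraries under peaks spanning chr2:56850397-56851233. Its ELF3 folds were 2.55 in LD ZT0, 2.43 in LD ZT4, 3.57 in LD ZT20, 1.99 in SD ZT0, 2.51 in SD ZT4, 2.56 in SD ZT20 and 3.69 in LL ZT0. PHYC gave 3.61 and 2.67, and PRR37 2.61. The LL ZT0, LD ZT20 and PHYC replicate 1 values stood above the rest, and in these 3 the peak passed p under 0.001. LOC100829471, a protein-coding gene 194 bp away, lay under 7 of the 10 peaks.

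LOC112270274 (197 bp, chromosome 1) was also bound in all 10, under peaks at chr1:3636574-3637144. Folds under ELF3 were 3.00 in LD ZT0, 2.10 in LD ZT4, 2.85 in LD ZT20, 2.38 in SD ZT0, 2.08 in SD ZT4, 2.53 in SD ZT20 and 2.66 in LL ZT0, and they were 3.44 and 3.03 under PHYC and 2.24 under PRR37. The 3 ZT4 libraries, of ELF3 and PRR37, held its lowest folds. Summits lay 158 to 233 bp above the centre, outside the body in every library.

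LOC112272158 (161 bp, chromosome 3) overlapped a protein-coding gene, LOC100832877, and was bound in all 10 libraries under peaks at chr3:34630862-34631550. Its folds were 2.54, 2.42 and 3.15 under ELF3 in LD (ZT0, ZT4, ZT20), 2.29, 3.27 and 2.84 in SD and 2.67 in LL ZT0. PHYC gave 2.67 and 2.91 and PRR37 2.61, all inside the range of ELF3. All 10 of its peaks also overlapped that gene.

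LOC112270229 (161 bp, chromosome 1) had the narrowest range of folds among the 5 members bound in all 10 libraries, 2.15 to 2.56. Folds under ELF3 were 2.31, 2.2 and 2.34 in LD (ZT0, ZT4, ZT20), 2.35, 2.2 and 2.15 in SD and 2.48 in LL ZT0, beside 2.53 and 2.56 under PHYC and 2.42 under PRR37. Its peaks covered chr1:2335937-2336634, and none passed p under 0.001. The neighbouring member LOC112270252, also of 161 bp and 3687 bp away, was bound in 3 libraries only: ELF3 LD ZT0 (fold 2.37), PHYC replicate 1 (2.68) and PRR37 (2.35).

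A further pair of members missed 1 library each. LOC112270355 (161 bp) lacked a peak only in ELF3 LD ZT4 and had folds of 2.09 to 2.98, highest in PHYC replicate 2. LOC112272110 (128 bp) lacked one only in ELF3 SD ZT0 and had folds of 2.10 to 2.62.

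LOC112269026 (103 bp, chromosome 4) was bound in 7 libraries, and its PHYC folds of 3.1 and 3.54 lay above its ELF3 folds. ELF3 gave 1.66 in LD ZT0, 1.94 in LD ZT20, 2.49 in SD ZT0, 2.40 in SD ZT4 and 1.82 in SD ZT20, and there was no peak in ELF3 LD ZT4, ELF3 LL ZT0 or PRR37. Its peaks fell in chr4:14557248-14557948, with every summit 170 to 232 bp below the centre. LOC112269027, its neighbour of the same length 9660 bp away, had a peak in both PHYC libraries (folds 2.42 and 1.82) and in no ELF3 or PRR37 library.

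The other members bound in 5 to 7 libraries were LOC112272081 (159 bp, 7 libraries), LOC112272132 (197 bp, 6), LOC112270352 (103 bp, 6), LOC112269023 (103 bp, 6), LOC112270366 (161 bp, 5) and LOC112272154 (120 bp, 5). LOC112272081 and LOC112272132 lay 6526 and 3989 bp from the nearest protein-coding gene, so neither had a gene of that kind in the window. LOC112272132 reached a fold of 3.13 in ELF3 LD ZT4, where only 2 bp of the member were under the peak, and in 4 libraries without a call a peak ended 7 to 16 bp short of it. LOC112269023 had folds of 1.6 to 1.85 in its 4 ELF3 libraries and of 2.45 and 2.55 under PHYC.

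**Figure D4:**
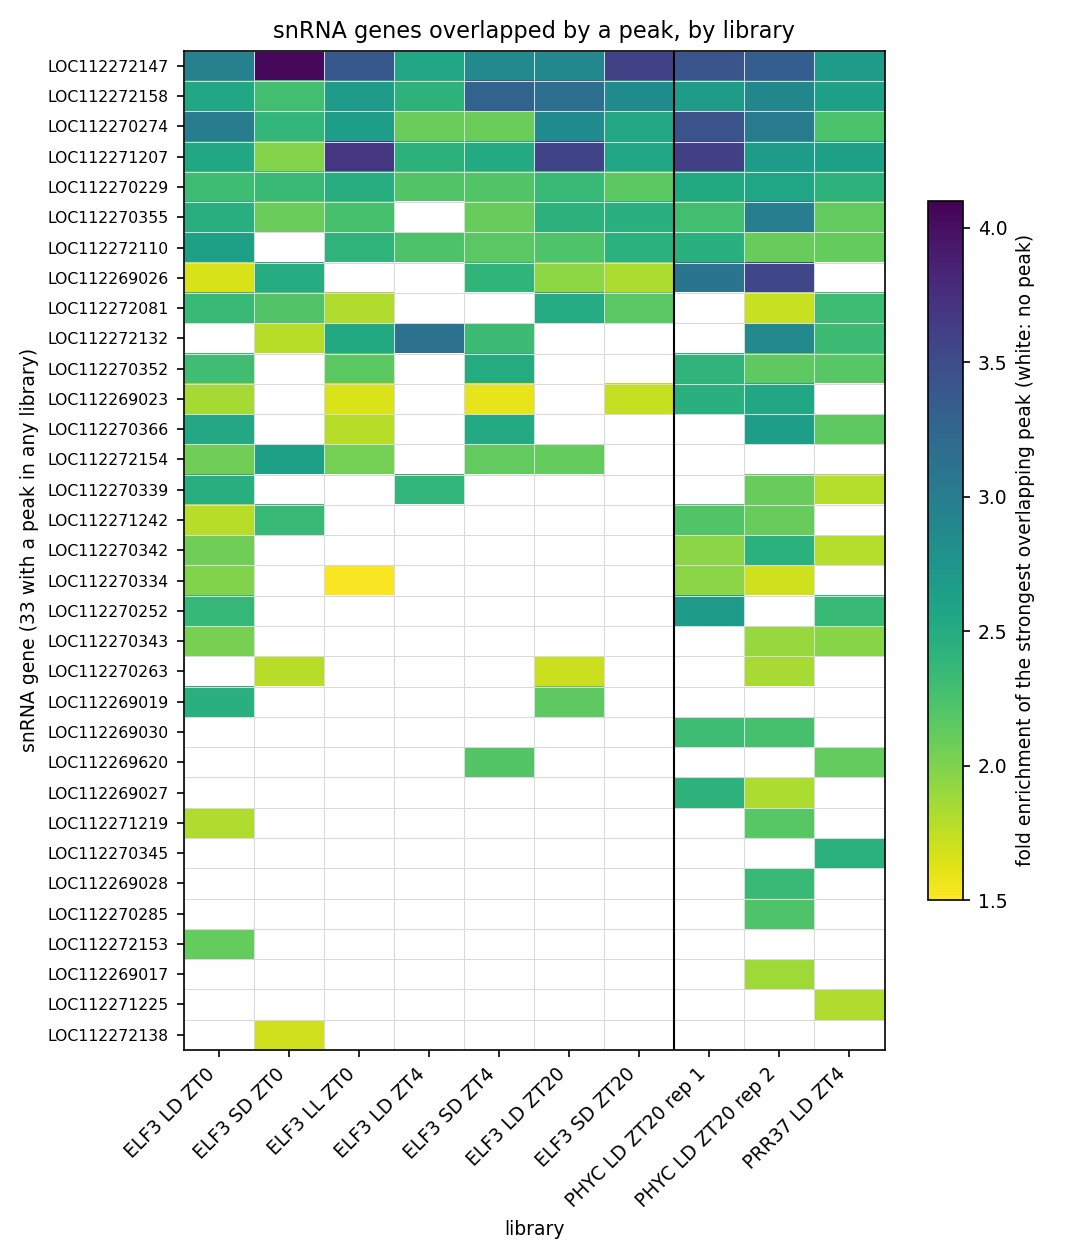
Fold enrichment (colour scale) of the strongest peak on each of the 33 snRNA genes bound in any library (rows, sorted by number of libraries) in the 10 libraries (columns, ELF3 left of the black line, PHYC and PRR37 right). The first 5 rows are filled in all 10 libraries, the highest value is 4.04 for LOC112272147 in ELF3 SD ZT0, and the lower rows are filled mostly in ELF3 LD ZT0, PHYC and PRR37.

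Of the 14 members bound in 5 or more libraries, 7 had every summit on one side of the centre, and in 6 the summits of all libraries lay within 100 bp. The widest spread was 431 bp, at LOC112272132.

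The bound members were spread over lengths and chromosomes. Members of 161 bp made up 12 of the 86, and 7 of these were bound in 1 or more libraries, 3 of them in all 10. The 14 members of 197 bp had 9 bound, 2 of them in all 10, and the 11 members of 103 bp had 6 bound and none in all 10. Only 1 of the 6 members of 148 to 151 bp was bound, LOC112270334 in 4 libraries. On chromosome 4, which holds 12 of the 18 members of 102 to 106 bp, 5 of those 12 were bound in 1 or more libraries. For all genes on that chromosome the share was 45.9%. Among all other genes of 102 to 200 bp, 36 of 427 (8.43%) were bound in 1 or more libraries. Chromosomes 1, 2, 3, 4 and 5 had 13 of 30, 4 of 11, 8 of 23, 7 of 17 and 1 of 5 members bound, beside 45.9% to 53.1% of all genes on a chromosome. These length groups were formed after the values were seen.

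Protein-coding genes were close to most members: 89.5% overlapped one or lay within 2 kb of one, against 71.6% of snoRNA genes and 79.7% of tRNA genes. Of the 86, 9 overlapped one, 68 lay outside but within 2 kb, and 9 lay farther away. Bound counts per library ran over 1 to 2 of the 9 overlapping members, 5 to 18 of the 68 near ones and 1 to 5 of the 9 distant ones. The median share bound was 22.2% for the distant members (2 of 9), 16.9% for the near ones and 11.1% for the overlapping ones (1 of 9). With 9 members in a group these shares rest on single members, and their order was not tested.

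Some members had recurrent peaks in the window but not on the body, and they were picked out after their values were seen. LOC112272103 (156 bp) and LOC112272155 (102 bp) had a peak within 2 kb in all 10 libraries, at gaps of 1180 to 1853 bp and 329 to 602 bp, and none on the body. LOC112272153 (120 bp) had a peak on its body in ELF3 LD ZT0 only, with a fold of 2.12, but a peak past p under 0.001 within 2 kb in all 10 libraries and past q under 0.01 in 2. LOC112270285 (197 bp) had a body peak only in PHYC replicate 2, and in the other 9 libraries a peak 1704 to 1834 bp away. No deposited peak lay within 2 kb of 26 members in any library.

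The first comparison asked whether ELF3 libraries differed from those of PHYC and PRR37. The share of members bound averaged 15.4% (standard deviation 5.14, n = 7) under ELF3 and 22.9% (standard deviation 5.50, n = 3) under PHYC and PRR37, 7.42 percentage points lower in ELF3 (exact two-sided permutation over 120 relabellings, p = 0.0917, adjusted over the 3 comparisons 0.275). The groups overlapped, since ELF3 LD ZT0 with 25.6% lay above PHYC replicate 1 and PRR37. The share of all genes went the other way, at 24.4% to 29.6% under ELF3 and 20.1% to 23.5% under PHYC and PRR37. When every list was cut to its 12344 strongest peaks the snRNA difference was −10.1 points (exact permutation, p = 0.0167), and when the share of all genes in the library was subtracted it was −12.5 points (p = 0.0167). Without ELF3 LD ZT0 it was −9.11 points (exact permutation over 84 relabellings, p = 0.0119), and without PHYC replicate 2 it was −4.32 points (exact permutation over 36 relabellings, p = 0.361), whereas with the 2 kb window it turned to 2.60 points higher in ELF3 (p = 0.50). The p-values of these alternatives were not adjusted. The comparison rests on 2 PHYC libraries of 1 condition and 1 PRR37 library, and photoperiod and time are not balanced between the groups.

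tRNA genes differed between the targets in the same direction as the members. They were bound at 1.89% to 3.6% under ELF3 and at 4.92% to 6.25% under PHYC and PRR37, ranges that did not overlap. snoRNA genes were at 3.01% to 4.68% and 3.34% to 4.01%. miRNA genes went the other way, with 6.13% to 8.71% under ELF3 and 4.19% to 4.84% under PHYC and PRR37. So did the other genes of member length, with 3.04% to 4.68% and 2.11% to 2.81%. With the tRNA share of each library subtracted, the snRNA difference was −4.40 points (exact permutation, p = 0.158).

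By member, 22 (25.6%) were bound in libraries of both kinds, beside 29.9% of all genes. ELF3 libraries alone bound 4 members (4.65%), beside 18.0%, and PHYC or PRR37 libraries alone bound 7 (8.14%), beside 3.15%. All 3 PHYC and PRR37 libraries bound 9 members (10.5%), beside 11.8%. LOC112272154 was the member most often bound under ELF3 and not otherwise: it had peaks in 5 of 7 ELF3 libraries, with folds of 2.06 in LD ZT0, 2.11 in LD ZT20, 2.63 in SD ZT0, 2.13 in SD ZT4 and 2.04 in LL ZT0, and in 0 of the 3 other libraries. Its summits lay within 47.5 bp of the centre, inside the body in all 5. In the opposite direction, LOC112270342 (121 bp) was bound in 1 of 7 ELF3 libraries (LD ZT0, fold 2.06) and in all 3 others (1.95 and 2.44 under PHYC, 1.79 under PRR37). These members were named for the size of this difference, which is therefore not tested.

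Conditions could be matched in 2 cases. At LD ZT4, ELF3 bound 8 members and PRR37 18, and all 8 were among the 18, so the shared set was 100% of the ELF3 and 44.4% of the PRR37 members. For all genes the shared part was 57.0% of the ELF3 and 70.6% of the PRR37 genes. At LD ZT20, ELF3 bound 12 members, of which 8 (66.7%) were shared with PHYC replicate 1 (50% of its 16) and 10 (83.3%) with replicate 2 (40% of its 25). For all genes the shared part was 66.3% of the ELF3 and 75.0% of the replicate 1 genes, and 55.2% of the ELF3 and 73.0% of the replicate 2 genes. With 1 ELF3 library at each time these differences have no replicate check.

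The PHYC libraries shared most of the smaller set. Both bound 15 members (17.4%, beside 14.6% of all genes), which is 93.8% of replicate 1 and 60.0% of replicate 2, beside 62.1% and 72.5% for all genes. LOC112270252 was bound in replicate 1 only, and 10 members in replicate 2 only, among them LOC112269017 (162 bp, fold 1.87) and LOC112269028 (103 bp, fold 2.33). The pair differed by 10.5 percentage points (standard deviation 7.40, n = 2), more than the 7.42 points between the targets.

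The next comparison set ELF3 in LD against ELF3 in SD. At ZT0 the share of members bound was 25.6% in LD against 15.1% in SD. At ZT4 it was 9.30% in LD against 16.3% in SD, and at ZT20 14.0% in LD against 11.6% in SD. The difference changed direction between times, with a mean of 1.94 percentage points (standard deviation 8.73, n = 3; exact two-sided sign-flip permutation, p = 0.75, adjusted 0.75). With 3 pairs this test cannot go below 0.25. All genes differed far less, by 0.817, 2.01 and 0.0577 points. tRNA genes moved as the members did, with 3.6% bound in LD against 2.08% in SD at ZT0, 1.89% against 3.41% at ZT4, and 2.46% against 1.89% at ZT20. Other short classes did not change direction. snoRNA genes had 4.35% in LD against 3.01% in SD at ZT0, 3.68% against 3.01% at ZT4 and 4.68% against 3.01% at ZT20. LD was also above SD at every time for miRNA genes and for other genes of member length. At ZT4 these had 7.42% against 6.13% and 3.98% against 3.28%.

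**Figure D5:**
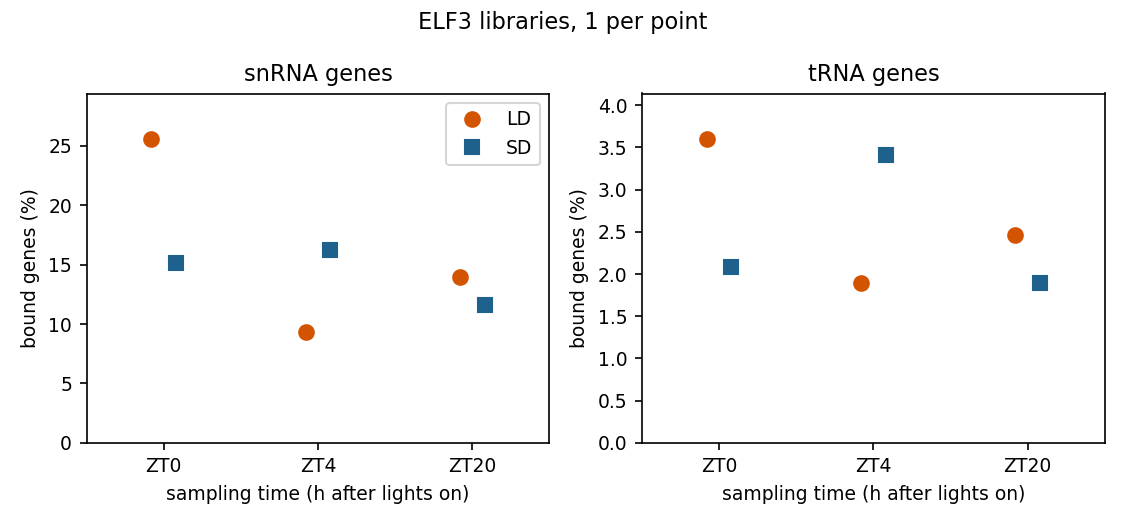
Percent of snRNA genes (left) and tRNA genes (right) overlapped by a deposited peak (vertical axes) in the ELF3 libraries at ZT0, ZT4 and ZT20 (horizontal axes), with LD as circles and SD as squares, 1 library per point. In both classes LD is above SD at ZT0 and ZT20 and below it at ZT4. For snoRNA and miRNA genes, not drawn, LD was above SD at every time.

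More members were bound by ELF3 in both photoperiods than in a single one, and the same held for all genes. Bound members were common to LD and SD in 16 cases (18.6%, beside 30.4% of all genes), LD alone bound 8 (9.30%, beside 7.67%) and SD alone 2 (2.33%, beside 7.74%). No member was bound at all 3 times in one photoperiod and at none in the other. The matching count for all genes was not made, so this is not read as a trait of the class. The largest differences were those of LOC112269019 (197 bp, overlapping a protein-coding gene), bound in LD at ZT0 and ZT20 with folds of 2.45 and 2.15 and never in SD, and LOC112270339 (119 bp), bound in LD at ZT0 and ZT4 with folds of 2.46 and 2.38 and never in SD. LOC112270339 also had peaks in PHYC replicate 2 (2.10) and PRR37 (1.79).

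Sampling time was compared within the ELF3 LD and SD libraries. The mean share over the photoperiods was 20.3% at ZT0, 12.8% at ZT4 and 12.8% at ZT20. The variance between time means was 19.0 squared percentage points (exact permutation of times within photoperiod, 36 arrangements, p = 0.667, adjusted 0.75), and the design cannot give a p below 0.167. At ZT0, LL bound 14 members, of which 13 (92.9%) were also bound in LD and 9 (64.3%) in SD, beside 70.8% and 65.7% of the genes of all biotypes bound in LL.

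LOC112271242 (161 bp) and LOC112270334 (151 bp) were bound in 4 libraries each, both PHYC libraries and 2 of ELF3, with folds of 1.77 to 2.35 and 1.52 to 2.0. LOC112270343 (119 bp) was bound in ELF3 LD ZT0, PHYC replicate 2 and PRR37, with folds of 1.90 to 2.03, and lay 644 bp from LOC112270345, bound in PRR37 alone.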

How the data were processed

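The authors' deposited peak lists (MACS2, 1 per library) give a fold enrichment over background (a ratio), −log10 p, −log10 q and a score equal to the whole part of 10 times −log10 p. The study's methods name bwa, MACS2 and a q filter of 0.01 that these lists do not carry, whereas the submitters' processing notes name Trimmomatic, Bowtie2, Picard, deepTools, MACS2 and TAIR10. Use of a control or of a mapping-quality filter is not given in the sources used here, so reads of near-identical snRNA copies may be split or misplaced. Depth is unknown.

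Gene positions came from the RefSeq table, whose assembly name differs from the study's. Of 26977 summits with p under 0.001, 65.2% were at most 500 bp from an end of a protein-coding gene, and 18.4% to 21.2% were after the genes had been shifted. Only peak coordinates are printed, counted from 1. No genome sequence, strand or product name was used here, so sequences, motifs, snRNA types and the planned list of splicing genes were not analysed.

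Members, lists and tests were chosen with earlier results of these data known. The members named were those past q under 0.01, then those bound in the most libraries (ties by median fold) up to 20, and up to 3 with the largest difference in each of LD against SD, ELF3 against the others and the PHYC pair. Shares were compared by exact permutation over libraries, after tests on simulated data. Alternatives were other windows and thresholds, equal list lengths, merged neighbours and omitted libraries. Tables were made with pandas 2.3.3 and numpy 2.4.6 in Python 3.11.15, intervals with scipy 1.17.1 and figures with matplotlib 3.10.9.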

Additional observations from a re-analysis of the deposited data

Results flagged for a closer look

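The difference between LD and SD in the share of snRNA genes bound by ELF3 ran in opposite directions at different times: it was 10.5 percentage points at ZT0, −6.98 at ZT4 and 2.33 at ZT20 (LD minus SD). Each value rests on 1 library per condition, and the change of direction between times was not tested. No group held 4 or more libraries of 1 condition, so single libraries were not screened for distance from their group.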

How the results depend on the processing

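The ELF3 difference of −7.42 percentage points missed the threshold (exact permutation, p = 0.0917). By the same exact permutation it passed with equal list lengths (−10.1, p = 0.0167), among the 9 members over 2 kb from a protein-coding gene (−19.6, p = 0.0417), after subtracting the share of all genes (−12.5, p = 0.0167) and, as a ratio to that share, an alternative chosen after seeing the data (−0.494, p = 0.0167). It turned to 2.60 with the 2 kb window and to 0.166 at q under 0.01 (exact permutation, p = 0.50 and 1). Leaving out 1 library gave −9.55 to −4.32, with −4.32 without PHYC replicate 2 (exact permutation, p = 0.361), and only without ELF3 LD ZT0 did p pass the threshold (−9.11, exact permutation p = 0.0119; omission of ELF3 libraries was added after seeing the data). Over its 22 alternatives p ran between 0.0119 and 1, and these values were not adjusted for the number of alternatives or comparisons. LD minus SD turned to −0.388 with summits inside the body, to −0.388 at q under 0.01 and to −0.775 with the 1000 strongest peaks. It and the time comparison passed under none of their 12 alternatives each, in designs that cannot reach 0.05.

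The median share of members bound, 16.3%, became 37.2% with the 2 kb window, 29.7% with 1 kb, 4.07% with summits inside the body, 2.33% at p under 0.001, 0.581% with the 1000 strongest peaks and 0% at q under 0.01. The 5 members bound in all 10 libraries became 11 with the 2 kb window and 0 at p under 0.001 or q under 0.01. The 15 members shared by the PHYC libraries became 0 at q under 0.01. LD and SD were paired by time. Pairing by replicate number was not possible because the groups compared share none given by the labels. Sequencing depth is unknown, and the calls on members rest on weak peaks.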
